A study of Mus musculus with 6 samples.

Results

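Transcripts of 9 genes that mark bile duct cells and liver progenitor cells were followed in liver tissue of a mouse model of nonalcoholic steatohepatitis (NASH). The genes were chosen by symbol, as Krt7, Krt19, Krt23, Krt8, Krt18, Sox9, Epcam, Cftr and Cd24a, and each had its own entry among the 24346 genes of the deposited table. The 6 livers came from male C57BL/6 mice (C57BL/6J in the methods of the study) that were 8 weeks old when CDAHFD was begun, a high-fat diet that lacks choline and holds amino acids in place of protein. After 6 weeks on this diet each mouse received an adeno-associated virus (AAV8), was returned to normal chow, and was examined 2 weeks later. In the 3 control livers the virus encoded LDTS-LIR mut, a lipid droplet-targeting sequence joined to a mutated LC3-interacting region. In the 3 lipophagy-induced livers it encoded LDTS-eLIR, the same targeting sequence with an engineered LC3-interacting region that recruits autophagosomes to lipid droplets. Both groups thus carried the targeting sequence, which is taken from perilipin and has a lipogenic effect of its own, and both vectors used the thyroxine-binding globulin promoter, which is active in hepatocytes. The labels do not state that the samples of a group are separate animals, so the p-values measure the spread between these samples.

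Bile ducts are lined by cholangiocytes, epithelial cells whose cytoskeleton is built of the keratins K7, K8, K18 and K19, while hepatocytes hold only K8 and K18. Keratin filaments are obligate pairs of a type II keratin (Krt7, Krt8) with a type I keratin (Krt18, Krt19, Krt23). In chronic liver injury small ductules expand at the portal edge, a response called the ductular reaction, and cells in it carry cholangiocyte markers together with the transcription factor SOX9 and the adhesion molecule EpCAM. Its extent is often followed in NASH by staining for K7 or K19. RNA of whole liver was measured here, where fewer cells of a type and less RNA per cell cannot be told apart.

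The keratin markers lie on chromosomes 15 and 11, and the other markers are spread over 4 chromosomes. In the RefSeq annotation of GRCm38.p6, Krt7 occupies chr15:101412403-101427806, Krt8 chr15:101996711-102004342 and Krt18 chr15:102028216-102032026. Krt8 and Krt18 stand head to head, 23873 bases apart, with 2 annotated genes between them. Krt23 (chr11:99477973-99493120) and Krt19 (chr11:100140810-100145926) share chromosome 11 with Sox9 (chr11:112782210-112787757). Epcam is at chr17:87635979-87651127, Cd24a at chr10:43579169-43584265 and Cftr at chr6:18170687-18322770.

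Promoter windows, from 250 bases before to 50 after the annotated start, were available from RefSeq for 6 of the 9 genes, Krt7, Krt8, Krt18, Krt23, Epcam and Cftr. Krt7 and Epcam shared their 3 highest livers. The neighbours Krt8 and Krt18 did not, although the ratio of their FPKM stayed between 0.984 and 1.33. Windows of these 4 genes are shown. They are printed 5′ to 3′ on the strand of the gene, at chr15:101412153-101412452 (plus strand) for Krt7, chr17:87635729-87636028 (plus) for Epcam, chr15:102004293-102004592 (minus) for Krt8 and chr15:102027966-102028265 (plus) for Krt18. Capitals mark a match to a searched motif.
Krt7: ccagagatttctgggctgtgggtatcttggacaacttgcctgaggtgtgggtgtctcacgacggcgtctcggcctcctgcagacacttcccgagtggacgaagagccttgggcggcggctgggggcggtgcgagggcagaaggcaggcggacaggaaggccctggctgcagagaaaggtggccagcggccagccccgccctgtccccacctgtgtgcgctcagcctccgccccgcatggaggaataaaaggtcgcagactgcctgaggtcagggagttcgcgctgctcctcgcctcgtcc
Epcam: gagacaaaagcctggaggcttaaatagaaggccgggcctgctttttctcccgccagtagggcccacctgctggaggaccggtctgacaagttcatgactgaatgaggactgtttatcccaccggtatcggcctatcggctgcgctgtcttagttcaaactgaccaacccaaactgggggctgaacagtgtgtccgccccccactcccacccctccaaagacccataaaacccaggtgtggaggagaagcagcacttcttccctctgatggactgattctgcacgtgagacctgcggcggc
Krt8: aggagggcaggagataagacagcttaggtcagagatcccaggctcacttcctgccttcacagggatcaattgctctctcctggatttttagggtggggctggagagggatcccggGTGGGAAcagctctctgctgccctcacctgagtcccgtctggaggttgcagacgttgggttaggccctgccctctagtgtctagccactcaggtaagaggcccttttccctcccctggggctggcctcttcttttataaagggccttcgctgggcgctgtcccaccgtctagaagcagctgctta
Krt18: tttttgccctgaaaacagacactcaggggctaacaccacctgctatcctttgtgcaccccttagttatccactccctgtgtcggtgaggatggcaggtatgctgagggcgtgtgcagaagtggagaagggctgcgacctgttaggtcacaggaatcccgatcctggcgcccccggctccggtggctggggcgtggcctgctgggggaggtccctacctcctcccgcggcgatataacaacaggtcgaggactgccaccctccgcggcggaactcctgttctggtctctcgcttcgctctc
The motifs searched on both strands were GTGGGAA (RBPJ, the DNA-binding factor of Notch), TGANTCA (AP-1), GGAATG (TEAD, the partner of YAP), TGTTTAC (FOXA) and AACAAAG (SOX). The RBPJ letters occurred in 1 of the 6 windows, that of Krt8, with its first base at position -135 from the start, and they occur in 6.38% of all 32851 promoter windows. None of the 6 windows held the AP-1, TEAD, FOXA or SOX letters, which are found in 7.81%, 14.7%, 3.65% and 5.85% of all windows. The windows of Krt7 (66.3% G+C) and Krt18 (61.3%) were richer in G+C than those of Krt8 (58.0%) and Epcam (57.0%), against a median of 52.7% over all windows. Krt7 held 21 CpG dinucleotides, Krt18 17, Epcam 11 and Krt8 6, and the median window held 7.

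Levels of the 9 markers fell into separate classes. Values are FPKM, fragment numbers that the authors scaled to transcript length in kilobases and to the total of mapped fragments, so levels can be set beside each other between genes. Krt8 had a mean over all livers of 348 FPKM and Krt18 of 297 FPKM, and together they made up 97.2% to 98.7% of the summed FPKM of the markers in every liver. Cd24a, Epcam, Krt19, Krt23, Sox9 and Krt7 lay between 0.384 and 6.51 FPKM in all livers. Cftr was lowest, at 0.0491 to 0.115 FPKM. Of the 47 other keratin genes in the table, 35 were at 0 in all 6 livers. The 3 other keratins with the highest means were Krt10 at 0.746 FPKM, Krt17 at 0.0907 and Krt80 at 0.0543.

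All 9 markers had a lower mean in lipophagy-induced livers, but none passed the test. The ratio of the lipophagy mean to the control mean was 0.538 for Krt7, 0.608 for Krt19, 0.610 for Epcam, 0.613 for Krt23, 0.641 for Cd24a and 0.560 for Cftr, whereas it was 0.881 for Krt8, 0.935 for Krt18 and 0.930 for Sox9. Differences were tested with limma on log2(FPKM + 1) over the 11493 genes whose mean reached 0.5 FPKM, and p-values were adjusted over all of them with the Benjamini-Hochberg method. Of the 9 markers 8 were tested, all with a mean above 0.5 FPKM in both groups, and Cftr was too low. The call rule of an adjusted p below 0.05 was met by 0 of the 8 markers and by 3 of all tested genes (0.0261%). An unadjusted p below 0.05 with a lower level was found for 2 of the 8 markers, Cd24a and Krt23, and for 7.97% of all tested genes. The fitted log2 change was below 0 for 8 of 8 tested markers, against 45.5% of all tested genes, and its median was -0.42 for the markers and 0.02 for all tested genes.

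**Figure D1:**
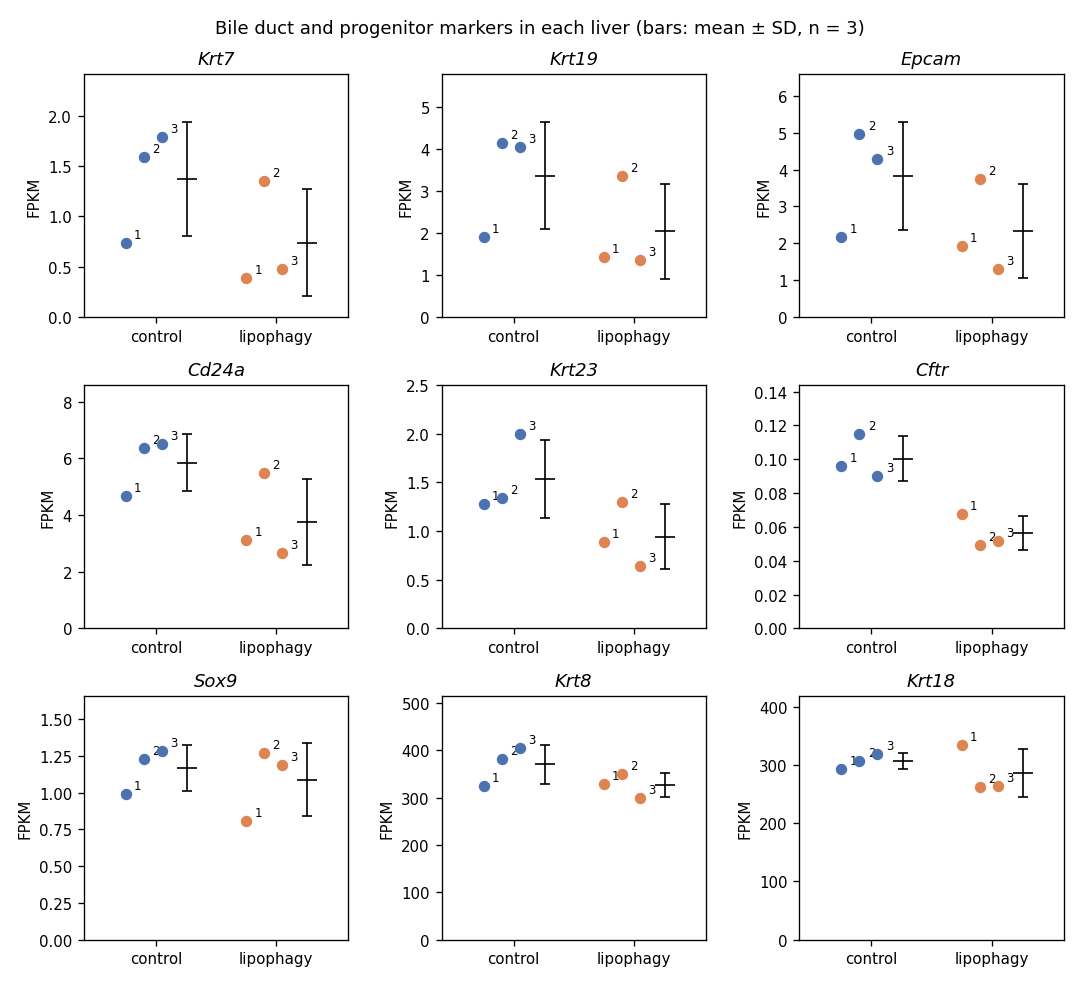
FPKM of each marker (vertical axes, linear and starting at 0, on a scale of its own for each gene) in the 3 control livers (blue) and the 3 lipophagy-induced livers (orange), with the replicate number beside each point and the mean ± SD (n = 3) in black. Control 1 lay lowest of the controls for 8 of the 9 markers, lipophagy 2 lay highest of the lipophagy-induced livers for 7, and only Cftr had groups that did not overlap.

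The keratins Krt7 and Krt19, which are confined to the duct epithelium in healthy liver, shared their 3 highest and 3 lowest livers. Krt7 (type II) was at 0.734, 1.59 and 1.79 FPKM in control livers 1, 2 and 3 and at 0.384, 1.35 and 0.481 FPKM in lipophagy-induced livers 1, 2 and 3. Krt19 (type I) was at 1.91, 4.16 and 4.05 FPKM in control livers and at 1.43, 3.36 and 1.37 FPKM in lipophagy-induced livers. For both genes control 2, control 3 and lipophagy 2 were high, control 1, lipophagy 1 and lipophagy 3 were low, and the groups overlapped because lipophagy 2 exceeded control 1. Mean Krt7 was 1.37 ± 0.561 FPKM (SD, n = 3) in control and 0.738 ± 0.531 FPKM in lipophagy-induced livers, a log2 change of -0.46 (SE 0.237, limma adjusted p = 0.315). Mean Krt19 was 3.37 ± 1.27 FPKM in control and 2.05 ± 1.13 FPKM in lipophagy-induced livers, a log2 change of -0.53 (SE 0.287, limma adjusted p = 0.333). The difference between groups was therefore of about the size of the spread within a group, where the highest liver exceeded the lowest by 2.44-fold for Krt7 in controls and by 3.51-fold in lipophagy-induced livers. The ratio of Krt19 to Krt7 FPKM stayed between 2.26 and 3.72 while each gene varied.

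Epcam and Cd24a encode surface proteins. EpCAM is a homophilic adhesion molecule of cholangiocytes and progenitor cells, and CD24 is a small glycosylated, GPI-anchored protein that is used to sort progenitor cells from liver and is also found on B cells and neutrophils. Epcam was at 2.17, 4.98 and 4.29 FPKM in control livers and at 1.92, 3.75 and 1.31 FPKM in lipophagy-induced livers. Cd24a was at 4.68, 6.38 and 6.51 FPKM in control livers and at 3.12, 5.50 and 2.65 FPKM in lipophagy-induced livers. The 3 highest livers were those of the duct keratins. Lipophagy 2 lay above control 1 for both genes, and the other two lipophagy-induced livers lay below every control. Mean Epcam was 3.81 ± 1.46 FPKM in control and 2.33 ± 1.27 FPKM in lipophagy-induced livers (log2 change -0.55, SE 0.301, limma adjusted p = 0.342). Mean Cd24a was 5.86 ± 1.02 FPKM in control and 3.76 ± 1.53 FPKM in lipophagy-induced livers (log2 change -0.56, SE 0.213, limma adjusted p = 0.219). Markers of these blood cells were also read in the 6 livers. The summed FPKM of 8 B cell markers was 3.55 to 5.59 in control and 2.97 to 4.77 in lipophagy-induced livers, led by Cd79b. The summed FPKM of 9 neutrophil markers, led by S100a8, was 19.2 to 33.1 in control and 16.5 to 19.7 in lipophagy-induced livers, and their part in the Cd24a values was not tested.

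Krt23 is a type I keratin that is scarce in healthy liver and appears in stressed hepatocytes and in duct cells. Its values were 1.27, 1.34 and 2.002 FPKM in control livers and 0.886, 1.30 and 0.644 FPKM in lipophagy-induced livers. Control 3 stood above the rest, and lipophagy 2 lay between control 1 and control 2. The means were 1.54 ± 0.402 and 0.943 ± 0.331 FPKM (log2 change -0.39, SE 0.151, limma adjusted p = 0.227). On estimated fragments, 22.5 to 95.7 supported each Krt23 value.

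Sox9, the transcription factor that marks duct and progenitor cells, differed little between groups. It was at 0.992, 1.23 and 1.28 FPKM in control livers and at 0.804, 1.27 and 1.19 FPKM in lipophagy-induced livers, so that only lipophagy 1 lay outside the range of the controls. The log2 change was -0.06, with a 95% interval of -0.31 to 0.19 (limma adjusted p = 0.784). Its sign turned to higher in lipophagy-induced livers after quantile normalization (0.02) and without lipophagy 1 (0.04).

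Cftr encodes the chloride channel through which cholangiocytes secrete bicarbonate-rich bile. It was at 0.0960, 0.115 and 0.0898 FPKM in control livers and at 0.0676, 0.0491 and 0.0519 FPKM in lipophagy-induced livers. Every lipophagy-induced liver lay below every control, and here lipophagy 2 was the lowest of all livers rather than among the high ones. The means were 0.1003 ± 0.0132 and 0.0562 ± 0.00999 FPKM, and an exact two-sided permutation test gave p = 0.1, the smallest that 3 livers against 3 allow. These values corresponded to an estimated 16.0, 16.8 and 18.9 fragments in control livers and 9.95, 6.98 and 7.98 fragments in lipophagy-induced livers, so counting error was large. Cftr was thus 1 of 9 markers whose groups did not overlap, while 10.2% of the 17185 genes above 0 in at least 1 liver were lower without overlap. When limma was run without the filter on low values, the adjusted p of Cftr was 0.246.

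The pair Krt8 and Krt18, shared by hepatocytes and cholangiocytes, lay close together in both groups. Krt8 was at 325, 381 and 405 FPKM in control livers and at 330, 349 and 300.0 FPKM in lipophagy-induced livers, and only lipophagy 3 was below every control. Krt18 was at 294, 308 and 320.0 FPKM in control livers and at 335, 263 and 264 FPKM in lipophagy-induced livers, and lipophagy 1 was the highest of all. The log2 change was -0.18 for Krt8 (95% interval -0.43 to 0.07, limma adjusted p = 0.384) and -0.11 for Krt18 (95% interval -0.36 to 0.15, adjusted p = 0.621). After quantile normalization these became -0.36 for Krt8 (adjusted p = 0.138) and -0.29 for Krt18 (adjusted p = 0.203). With single livers left out, Krt8 ran from -0.27 without control 1 (limma adjusted p = 0.260) to -0.11 without control 3 (adjusted p = 0.675), and Krt18 from -0.22 without lipophagy 1 (adjusted p = 0.363) to -0.05 without lipophagy 2 (adjusted p = 0.877) or lipophagy 3 (adjusted p = 0.833). The ratio of Krt8 to Krt18 FPKM was 1.11, 1.24 and 1.27 in control livers and 0.984, 1.33 and 1.14 in lipophagy-induced livers, which overlapped. All type II keratins among the markers summed to 0.978 to 1.31 times the type I keratins, whereas Krt8 exceeded Krt19 by 91.6- to 231-fold.

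**Figure D2:**
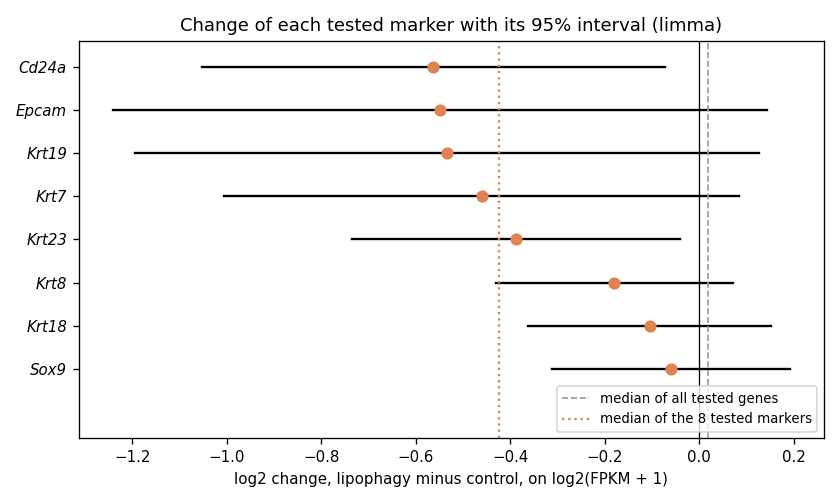
Fitted log2 change on log2(FPKM + 1), lipophagy-induced minus control livers (horizontal axis), for each of the 8 tested markers, with its 95% interval from limma. All 8 points lie below 0, from -0.56 for Cd24a to -0.06 for Sox9, and only the intervals of Cd24a and Krt23, which are not adjusted for the number of genes, leave out 0.

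Epcam, Krt19, Krt7 and Cd24a varied widely between livers of 1 group. For 7 of the 8 tested markers, all but Krt18, the 3 highest livers were control 2, control 3 and lipophagy 2, a set that was found for 6.6% of all tested genes. This set was noticed after the values were seen and is a description. Summed without Krt8 and Krt18, the markers reached 11.9, 19.8 and 20.02 FPKM in control livers and 8.61, 16.6 and 7.69 FPKM in lipophagy-induced livers. The SD within groups on the log2 scale was 0.508 for Epcam, 0.483 for Krt19, 0.393 for Krt7 and 0.349 for Cd24a, against a median of 0.118 over all tested genes, and these 4 lay above at least 96.5% of tested genes. It was 0.232 for Krt23, above 89.8% of tested genes, and 0.147 for Krt18, 0.146 for Sox9 and 0.140 for Krt8.

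**Figure D3:**
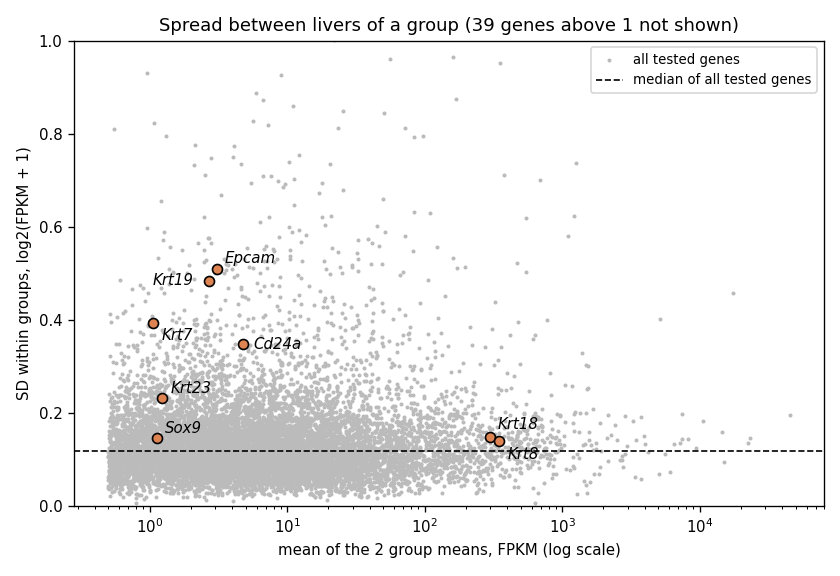
SD within groups on log2(FPKM + 1) (vertical axis) against the mean of the group means in FPKM (horizontal axis, log scale) for all tested genes (grey) and the 8 tested markers (orange), with the median SD of all tested genes as a dashed line. Epcam, Krt19, Krt7 and Cd24a stand well above the line at 0.349 to 0.508, while Sox9, Krt8 and Krt18 sit just above it, and 39 genes with an SD above 1 are outside the plot.

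Leaving out single livers moved the log2 changes in both directions. The log2 change of Epcam ran from -0.84 without lipophagy 2 (limma adjusted p = 0.194) to -0.32 without lipophagy 3 (adjusted p = 0.548), that of Krt19 from -0.82 (adjusted p = 0.184) to -0.38 (adjusted p = 0.494) and that of Cd24a from -0.81 (adjusted p = 0.098) to -0.39 (adjusted p = 0.301) without the same livers. Krt7 ran from -0.70 without lipophagy 2 (limma adjusted p = 0.178) to -0.32 without lipophagy 1 (adjusted p = 0.610), and Krt23 from -0.52 without lipophagy 2 (adjusted p = 0.173) to -0.26 without control 3 (adjusted p = 0.440). No marker passed the threshold with any liver left out. Lipophagy 2 was also set apart by red cell transcripts, since the summed FPKM of 9 red cell markers was 485 there, led by the globin gene Hbb-b1, and 110 to 172 in the other livers, and their part in the marker values was not tested. Defining genes of mesothelial cells, which share keratins with cholangiocytes, were nearly absent. Their 8 markers, led by Gpm6a, summed to 0.277 to 0.700 FPKM, and Upk1b was at 0 in all livers. Hepatocyte markers, led by Alb, summed to 63835 to 71804 FPKM in control and 78302 to 100075 FPKM in lipophagy-induced livers without overlap, and none of the 11 passed the test. FPKM summed over all genes was likewise 622696 to 681138 in control and 709993 to 782392 in lipophagy-induced livers, and whether these shifts bear on the lower marker values was not tested.

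Likeness between genes was measured over the 6 livers as the root mean square difference of log2(FPKM + 1), centred on each gene's mean and divided by its SD. Among the markers Krt7 and Krt19 were closest (0.129), followed by Krt19 and Epcam (0.177), and Krt19 and Cd24a (0.275). Krt8 and Krt18 were far apart (0.946), and Krt18 and Sox9 were farthest (1.58). Division by the SD hides how much a gene varied. The highest liver exceeded the lowest by only 1.35-fold for Krt8 and 1.27-fold for Krt18. Of 11488 genes compared, the nearest to Krt7 was St14 (0.0777), which encodes the epithelial membrane protease matriptase, with 0.594, 1.33 and 1.60 FPKM in control and 0.194, 1.05 and 0.259 FPKM in lipophagy-induced livers. The nearest gene was Cherp for Krt19 (0.0669), Arhgef39 for Epcam (0.112), Mfap4 for Cd24a (0.0859), Cyba for Krt23 (0.0581), AI661453 for Krt8 (0.0936), Enox2 for Krt18 (0.117) and Sema6b for Sox9 (0.0926). With so many genes and 6 livers, close matches arise readily. The nearest other marker had rank 5 for Epcam, 6 for Krt7, 9 for Krt19 and 64 for Cd24a. It had rank 113 for Krt23, 123 for Krt8, 431 for Sox9 and 1601 for Krt18.

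Other bile duct and progenitor genes had lower fitted levels in most cases too. Of a list of 26, 19 were tested, 18 had a log2 change below 0 (45.5% of all tested genes) and Aqp1, the water channel, one above it. None of the 19 had an adjusted p below 0.05, and 6 had an unadjusted p below 0.05 with a lower level (7.97% of all tested genes), namely Onecut1, Elf3, Ddr1, Anxa13, Tm4sf4 and Cdh1. The list median was -0.30. The lowest adjusted p was that of Elf3, an epithelial transcription factor, at 1.45 ± 0.170 FPKM in control and 0.595 ± 0.227 FPKM in lipophagy-induced livers (log2 change -0.63, SE 0.119, limma adjusted p = 0.116), with no overlap between groups. Onecut1, a transcription factor of duct development, had the lowest fitted log2 change (-0.86, SE 0.346, limma adjusted p = 0.240), and control 1 stood apart at 4.24 FPKM against 0.983 and 0.934 FPKM in the other controls and 0.341 to 0.653 FPKM in lipophagy-induced livers. Aqp1 was at 7.55 ± 0.747 FPKM in control and 9.48 ± 3.12 FPKM in lipophagy-induced livers (log2 change 0.25, SE 0.200, limma adjusted p = 0.499). Lower fitted levels were also found in marker lists of other cell types, whose counts stand beside 10.8% of all tested genes that were lower without overlap and 7.97% that were lower with an unadjusted p below 0.05. Of stellate cell markers, led by Dcn, 9 of 10 tested were below 0 (median -0.33), and 6 were lower without overlap and with an unadjusted p below 0.05. Of macrophage markers, led by Lyz2, 9 of 12 were below 0 (median -0.17), and Cd68, Csf1r, Itgam and Ly6c2 were lower without overlap and with an unadjusted p below 0.05. Of neutrophil markers 3 of 3 tested were below 0 (median -0.37), and S100a9 and Csf3r were lower in the same 2 ways. Of endothelial markers, led by Clec4g, 2 of 9 tested were below 0 (median 0.07). Hepatocyte markers had 10 of 11 tested above 0 (median 0.28), 6 higher without overlap and 5 higher with an unadjusted p below 0.05. Red cell markers had 7 of 7 tested above 0 (median 1.03), 1 higher without overlap and 2 higher with an unadjusted p below 0.05. These shares were 15.4% and 11.5% over all tested genes. None of these lists held a gene with a limma adjusted p below 0.05.

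The same 3 highest livers as for the duct keratins were found in 8 of the 19 other bile duct and progenitor genes, against 6.6% of all tested genes. They were Spp1, Prom1, Cldn7, Slc4a2, Anxa13, Muc1, Ehf and Ddr1. The set also held for 3 of 12 tested macrophage markers and 3 of 11 tested genes of keratin stress in hepatocytes. It held for 0 of 10 stellate cell markers and 0 of 9 endothelial markers. Muc1, an apical mucin, may serve as an example chosen after its values were seen. It was at 0.535, 1.16 and 1.19 FPKM in control livers and at 0.302, 0.834 and 0.289 FPKM in lipophagy-induced livers. Elf3, Tm4sf4, Cdh1 and Onecut1, also named after their values were seen except for the last, instead had all lipophagy-induced livers below all controls, as did 10.8% of all tested genes.

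**Figure D4:**
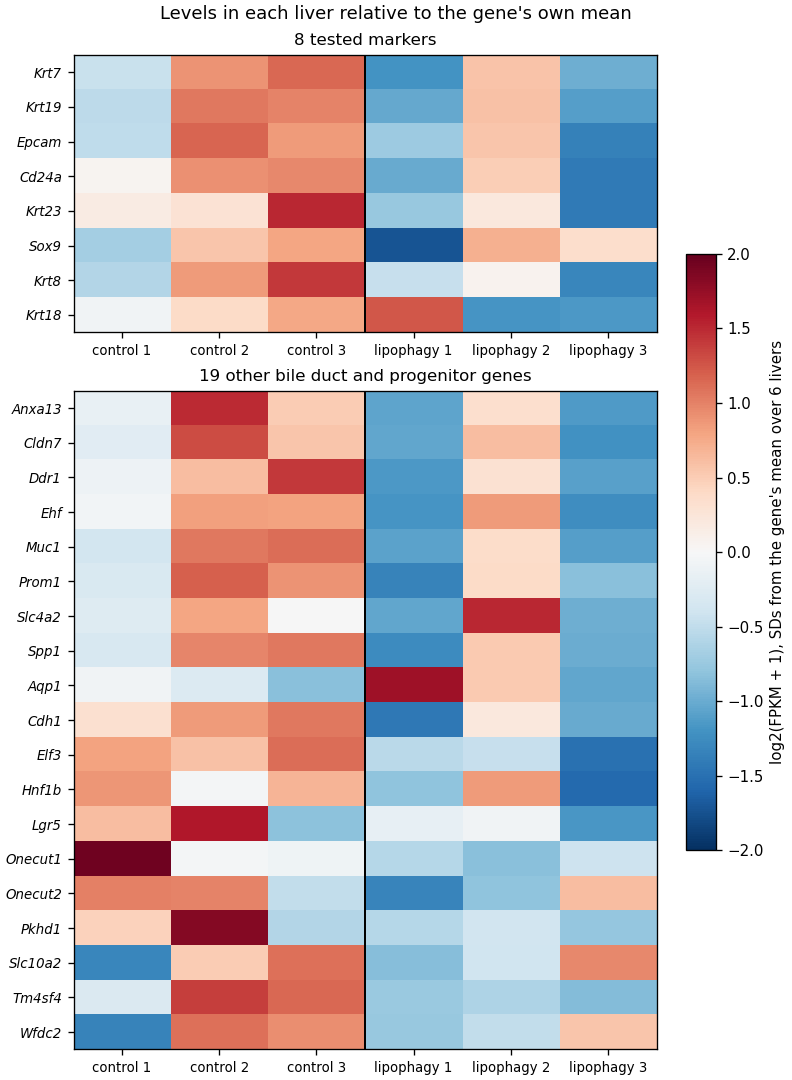
Heat map of log2(FPKM + 1) in each of the 6 livers (columns; the line parts control from lipophagy-induced livers), given as SDs from the gene's mean over the livers (colour), for the 8 tested markers and 19 other bile duct and progenitor genes (rows). The upper block and the first 8 rows of the lower block have control 2, control 3 and lipophagy 2 as the 3 highest livers for all genes except Krt18, and the rows of Elf3, Tm4sf4 and Onecut1 are blue in lipophagy 2.

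Signals that act on duct and progenitor cells were read from lists of pathway genes, and 0 genes of any of them had a limma adjusted p below 0.05. Of 18 tested genes of YAP and TEAD signalling, 15 had a log2 change below 0 (list median -0.13), beside 45.5% of all tested genes, and Stk3, Amotl2 and Ctgf were above 0. Unadjusted p-values below 0.05 with a lower level were found for 4 of the 18, Ajuba, Ankrd1, Wwtr1 and Axl, beside 7.97% of all tested genes, and these shares of all genes apply to the lists that follow as well. Ajuba, a LIM protein that restrains the LATS kinases, was at 3.93 ± 0.214 FPKM in control and 1.90 ± 0.264 FPKM in lipophagy-induced livers without overlap (log2 change -0.77, SE 0.0915, limma adjusted p = 0.071). Ctgf, a classical YAP target, had the highest fitted log2 change of the list (0.11, SE 0.160, limma adjusted p = 0.730). Notch signalling, which drives duct fate through SOX9 and HES1, had 11 of 16 tested genes below 0 (median -0.08), and Jag1 alone had an unadjusted p below 0.05. Jag1, a Notch ligand, differed by -0.22 (SE 0.0878, limma adjusted p = 0.232) and Hes1 by 0.42 (SE 0.325, adjusted p = 0.486) on the log2 scale.

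Growth signals of the ductular reaction had 9 of 10 tested genes below 0 (median -0.18). Tnfrsf12a, the receptor Fn14 of the cytokine TWEAK, was at 19.3 ± 1.66 FPKM in control and 12.2 ± 1.89 FPKM in lipophagy-induced livers without overlap (log2 change -0.63, SE 0.121, limma adjusted p = 0.119). Fzd7, Osmr and Rspo3 were the other genes of the 10 with an unadjusted p below 0.05 and a lower level. Egfr, the receptor of epidermal growth factor, was the 1 gene above 0 (log2 change 0.29, SE 0.110, limma adjusted p = 0.219). It was higher without overlap and with an unadjusted p below 0.05, as were 15.4% and 11.5% of all tested genes. Of 10 hepatoblast and fetal liver genes only 3 were tested. H19 (log2 change -0.62, limma adjusted p = 0.207) and Cd44 (-0.21, adjusted p = 0.247) were below 0, both with an unadjusted p below 0.05. Cd44 was also lower without overlap, as were 10.8% of all tested genes. Afp, the fetal serum protein, was at 0.06 (limma adjusted p = 0.728).

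Partners of the keratins were examined last. A list of genes of the plakins, desmosomes and hemidesmosomes that anchor keratin filaments, to which the intermediate filament genes Vim and Lmna had been added, had 12 of 13 tested members below 0 (median -0.15), with Vim (log2 change -0.38, SE 0.127, limma adjusted p = 0.186) lowest and Pkp2 (0.05, SE 0.0902, adjusted p = 0.795) highest. Vim encodes the intermediate filament of mesenchymal cells, and Dsp, encoding desmoplakin, was the other of 2 genes with an unadjusted p below 0.05 and a lower level. Genes tied to keratin stress in hepatocytes and to Mallory-Denk bodies, aggregates of K8 and K18 with the adaptor p62, had 8 of 11 below 0 (median -0.16). Ubd, the ubiquitin-like modifier FAT10, was at 19.03 ± 1.78 FPKM in control and 9.69 ± 2.83 FPKM in lipophagy-induced livers without overlap (log2 change -0.94, SE 0.177, limma adjusted p = 0.116). Tgm2 and Sqstm1, which encodes p62, were the other 2 genes of this list with an unadjusted p below 0.05 and a lower level. Hspa8, the constitutive HSC70 chaperone, had the highest fitted log2 change of the list (0.45, SE 0.158, limma adjusted p = 0.204), and it too was without overlap and had an unadjusted p below 0.05.

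**Figure D5:**
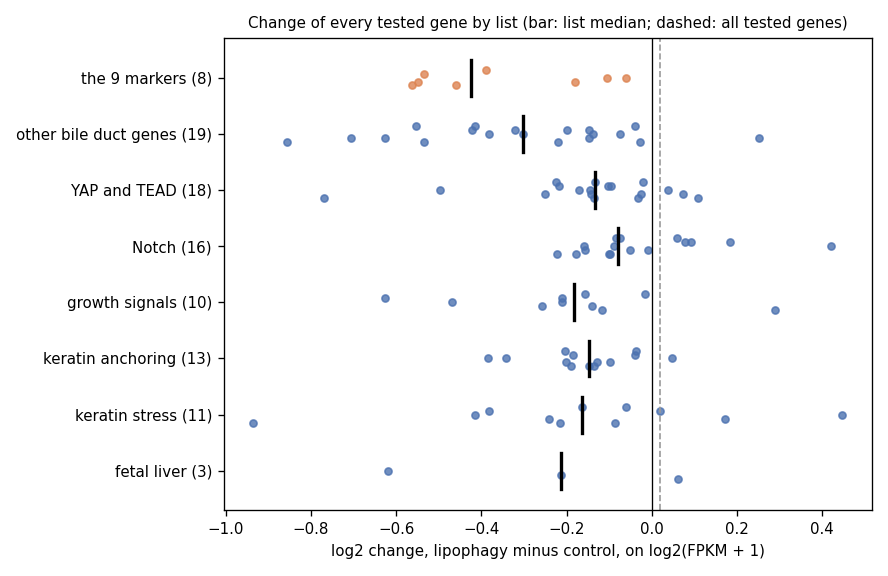
Fitted log2 change on log2(FPKM + 1), lipophagy-induced minus control livers (horizontal axis), of each tested gene (points) in the markers and 7 lists of related genes (rows, number tested in brackets), with list medians as black bars and the median of all tested genes as a dashed line. The markers have a median of -0.42 and the other bile duct genes of -0.30, and the remaining lists lie between -0.21 and -0.08.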

How the data were processed

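RNA of 3 control and 3 lipophagy-induced liver samples was measured by poly(A) RNA sequencing (stranded libraries, paired ends). The authors deposited FPKM values per gene symbol and liver. The submitters' processing notes name TopHat2 2.0.13, Bowtie2 2.2.3, SAMtools 0.1.19 and Cufflinks 2.2.1 with the build mm10, and the annotation, the strand setting and the handling of multiply mapped reads are not given in the sources used here. FPKM are no counts, so no count model was used.

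Groups and replicate numbers came from the sample labels. Values were transformed to log2(FPKM + 1), and genes were kept where the mean of the 6 livers reached 0.5 FPKM. The 11493 genes kept were fitted in limma 3.58.1 (R 4.3.3, intensity trend, no covariates), and p-values were adjusted by Benjamini-Hochberg over all of them. Fold changes on this scale understate those of low genes. Single genes were also compared by a two-sided exact permutation test. The procedure was tested on simulated data. Python 3.11.15 with numpy 2.4.6, pandas 2.3.3 and matplotlib 3.10.9 served for tables, promoter windows and plots. Positions and promoters are those of RefSeq on GRCm38.p6, the same assembly as mm10.

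The text names all 9 markers, and in each list the highest and lowest fitted change, any gene passing the test, the 3 highest other keratins, the nearest gene to each tested marker and a leading marker of each cell type. Other genes are named where a count covers few genes, after their values were seen. The markers and the lists were chosen with earlier results of these data known.

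Depth is not given by FPKM. It was estimated from values under 0.15 FPKM and under 4.5 fragments, most of which lie near whole multiples of 1 fragment. Lengths were those of 3073 genes with a single transcript of over 1000 bases, less 175 bases. This gave 23.8 to 34.4 M fragments in control and 23.2 to 25.1 M in lipophagy-induced livers. Of the values, 69.8% to 76.4% lay within 0.05 of a whole fragment. Depth and the 175 bases were chosen to make this share largest, so it is no separate check. Fragment numbers cover counting error only.

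Alternatives were pseudocounts of 0.1 and 0.5, no filter or a mean of 0.1 or 1 FPKM, limma with no trend, scaling of livers to equal medians, quantile normalization, leaving out each liver, and a block for the replicate number.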

Additional observations from a re-analysis of the deposited data

How the results depend on the processing

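Under 15 alternatives 0 markers passed an adjusted p of 0.05, and between 7 and 9 of them had a log2 change below 0. Their median change ranged from -0.68 to -0.29. Only Sox9 changed sign, to 0.023 after quantile normalization and 0.042 without lipophagy replicate 1, and with single livers left out it reached -0.12 (without lipophagy 2). With a pseudocount of 0.1 the log2 change was -0.90 for Krt7 and -0.67 for Krt23.

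The number of genes called among all tested was 3, it was 1 with no filter on low values, and it ranged from 1 (without control 3) to 11 (without lipophagy 3) when single livers were left out, with 7 without control 2, 5 without lipophagy 2 and 2 without control 1 or lipophagy 1. With the replicate number as a block 43 genes were called, none of them a marker. Deviations of same-numbered livers correlated at 0.250, 0.234 and -0.0565, and those of differently numbered livers at -0.387 to 0.251. With 3 livers a group these values cannot decide whether the numbers pair the livers, and no call was read from that fit. The adjusted p of Cd24a ranged from 0.098 to 0.446 over the alternatives. With 3 livers a group, no permutation p below 0.1 can be had, and Cftr rested on 6.98 to 18.9 estimated fragments a liver.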
